A study of Anolis carolinensis with 2 samples.

Results

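Linkage group LGb is a small linkage group of the green anole assembly that forms part of the lizard's X chromosome. All genes that both deposited gene tables place on LGb were taken, which gave 62 of the 21085 genes listed. They lie between positions 4014 and 3267839 of LGb, on the AnoCar2.0 assembly named in the series description. LGb holds only part of the X. The RefSeq gene table of the later assembly rAnoCar3.1 places 353 genes on that chromosome, of which 304 are protein coding. That count and the 62 genes of LGb come from different annotations and assemblies, so they cannot be compared directly. No identifier of the deposited files matched that table (0 of 21085), so the LGb genes carry no names here. They are given by position, with an identifier for at most 2 genes in each direction.

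RNA came from 2 whole embryos of Anolis carolinensis, one with 28 somite pairs and one with 38, collected 0 to 1 days after laying. The embryos are called the 28-pair and the 38-pair embryo below. Neither a genotype, a treatment nor the sex of either embryo is labelled, and the gene tables pair no marker gene names with identifiers, so the labelled tissue could not be checked against markers. Each stage was 1 library, so stage, embryo, sex and library cannot be told apart, no value has a replicate error and no p-value was computed. Levels are in FPKM, fragments per kilobase of transcript scaled to the depth of the library.

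In the green anole, as in mammals, males are the heterogametic sex: a male carries an X and a small Y, and a female carries a pair of X chromosomes. X-linked genes are therefore present in unequal copy number in the sexes. In this species the lone X of males is known to be transcribed at a raised level, which brings X-linked expression in males close to that of females and of autosomes. The X of this lizard is a microchromosome, one of the small, gene-dense chromosomes that are common in reptiles and birds.

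The libraries held 13859000 mapped fragments at 28 somite pairs and 12909000 at 38, recovered from the steps of the deposited values and rounded to 1000. Of these, 7217000 and 5604000 lay in listed transcripts (52.1% and 43.4%). LGb took 18933 fragments at 28 somite pairs and 11701 at 38. Only 123 of 9739 loci with 1 transcript and a value above 0 had fewer than 10 fragments at 28 somite pairs, and 121 of 9871 at 38. A gene listed at 0 can therefore still hold a few fragments. For a transcript with an effective length of 1 kb, 10 fragments are worth 0.72 FPKM at 28 somite pairs and 0.77 at 38.

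Most LGb genes were transcribed in the embryos. An FPKM of 1 or more was reached by 43 of the 62 genes in the 28-pair embryo (69.4%) and by 39 at 38 (62.9%). On chromosomes 1 to 6, the large chromosomes of the assembly, these shares were 54.7% and 55.9% of 10490 genes. In at least one library, 44 LGb genes reached 1 FPKM (71.0%), and these are called expressed below. Among the large chromosomes this share ran from 56.1% on chromosome 2 to 62.0% on chromosome 6, below that of LGb on each of the 6. Genes listed at 0 in both libraries numbered 13 on LGb (21.0%), against 31.9% to 37.2% on the large chromosomes.

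**Figure D1:**
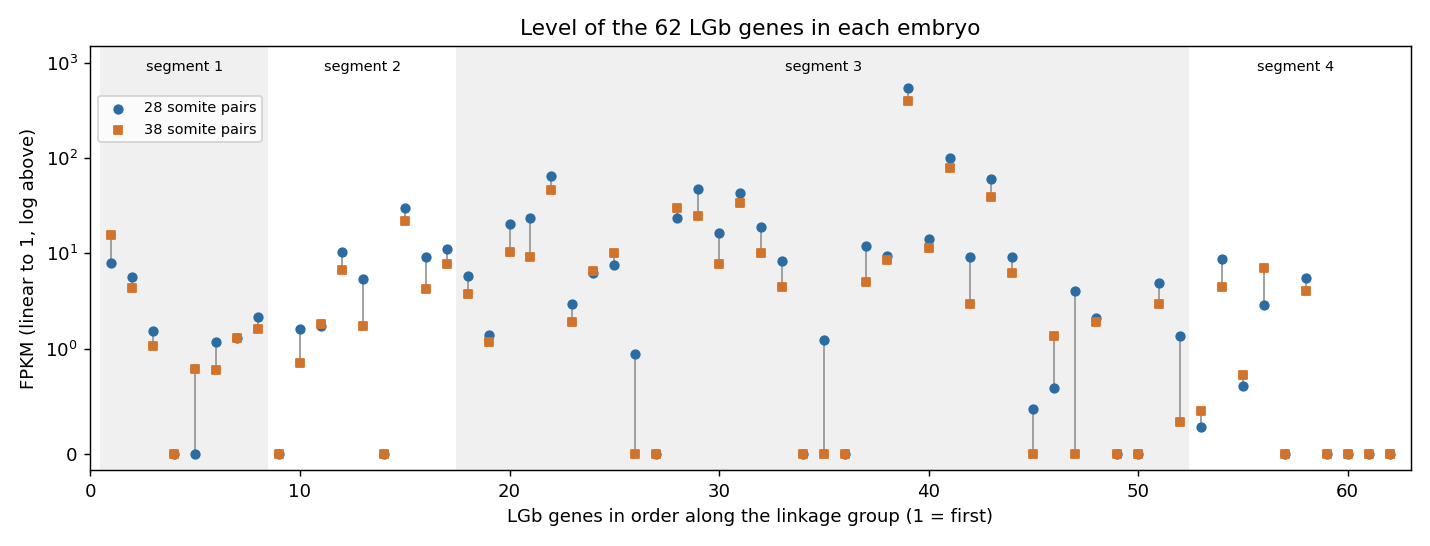
FPKM (vertical axis, linear up to 1 and logarithmic above) of the 62 LGb genes in their order along the linkage group, with circles for 28 and squares for 38 somite pairs and shading for 4 segments of equal length. The gene at 543 and 395 FPKM stands above all others, and squares lie below circles for 39 genes.

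LGb genes were packed more closely, and were less often intronless, than those of the large chromosomes. There were 19.0 genes per Mb between the first and the last, against 8.06 to 12.4 on chromosomes 1 to 6. Models whose length equals their genomic span, and which thus have 1 exon, were 5 of 62 (8.06%), against 17.0% to 22.5% on the large chromosomes. LGf was denser than LGb, at 23.9 genes per Mb, and had 9.90% of models with 1 exon. LGg and LGh, with 2 and 3 genes, had none. Of the 5 LGb models with 1 exon, only 1 was expressed. None of the 62 shared a locus with another gene, whereas 11.2% of the genes on chromosomes 1 to 6 did, so every LGb gene has its own fragment number. The median transcript length of expressed genes was 1409 bases on LGb and 1272 to 1344 bases on the large chromosomes.

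In the 28-pair embryo, the median of expressed LGb genes lay within the range of the large chromosomes. The median over the 44 expressed genes was 8.14 FPKM, with quartiles of 2.70 and 16.9. Medians on the large chromosomes ran from 7.70 FPKM on chromosome 2 to 10.4 on chromosome 5, and the median over all 6262 of their expressed genes was 9.11. The LGb median was thus 0.89 times theirs. This ratio was 0.73 over genes with 1 FPKM or more in both libraries and 0.58 over genes with 5 FPKM or more in one, where the ratio in the 38-pair embryo was 0.62 and 0.53. The upper quartile was further apart, at 16.9 FPKM on LGb and 27.4 on chromosomes 1 to 6. Genes of 50 FPKM or more were 4 of 62 on LGb (6.45%) and 8.59% of genes on chromosomes 1 to 6.

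In the 38-pair embryo, the LGb median lay below that of every large chromosome. It was 4.67 FPKM, with quartiles of 1.78 and 10.2, against medians from 6.54 FPKM on chromosome 2 to 9.71 on chromosome 5. The median over chromosomes 1 to 6 was 8.07 FPKM, so the LGb median was 0.58 times theirs. In whole embryos, fewer cells of a type and less RNA per cell cannot be told apart. The direction of these ratios depended on the filter: over all listed genes, those at 0 included, the LGb median was 3.45 FPKM in the 28-pair embryo and 1.90 at 38, against 1.73 and 1.83 on chromosomes 1 to 6. No test of the ratio was possible with 1 library per stage.

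**Figure D2:**
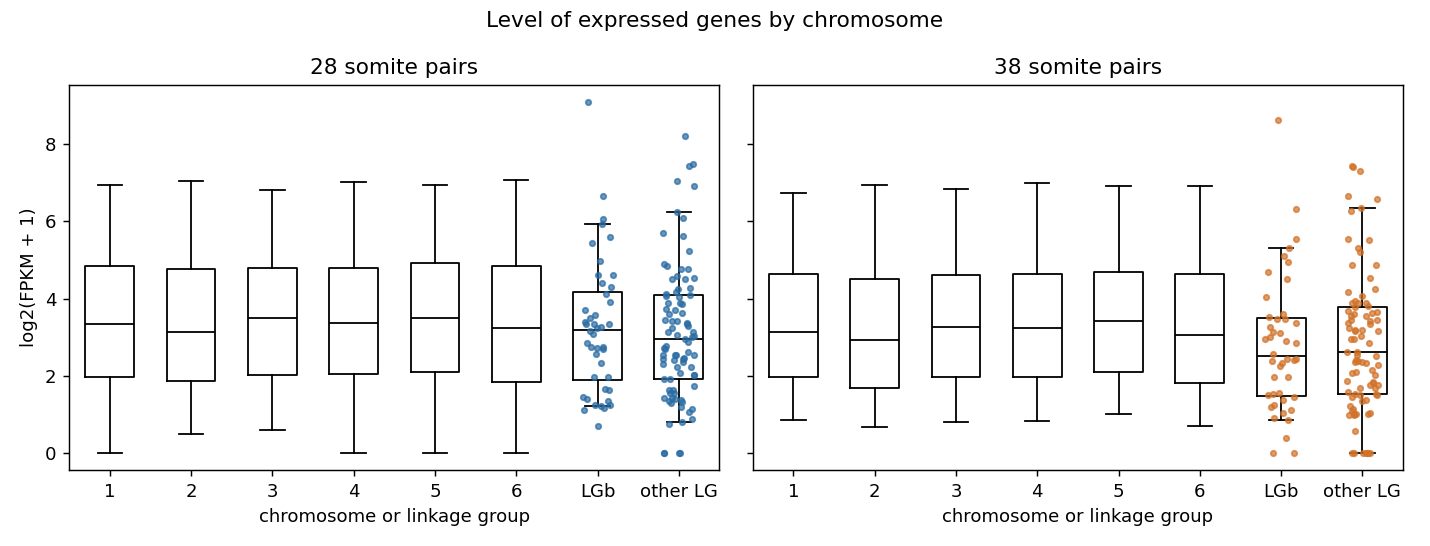
Levels as log2(FPKM + 1) of expressed genes on chromosomes 1 to 6, LGb and the other small linkage groups, in each library. Boxes show quartiles and median, whiskers the 5th and 95th percentiles, and points the single genes of LGb and of the other linkage groups, while the LGb median of 4.67 FPKM in the 38-pair embryo lies below all 6 large chromosomes.

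The other 6 small linkage groups (LGa, LGc, LGd, LGf, LGg and LGh) did not share one level. Over their 89 expressed genes the median was 6.67 FPKM in the 28-pair embryo and 5.07 at 38. LGc had medians of 11.1 and 9.76 FPKM over 36 genes, and LGf had 4.0 and 2.37 over 38. LGb thus lay between these at both stages. The difference from them could not be tested.

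A single gene dominated the summed FPKM of LGb. At 2138244 to 2142589, with a transcript of 591 bases, it had 543 FPKM in the 28-pair embryo and 395 at 38, from 4263 and 2890 fragments. It made up 46.5% and 47.1% of the summed FPKM of LGb, and was 5.46 and 4.99 times as high as the next gene. Of the LGb fragments, which are not scaled to transcript length, it held 22.5% and 24.7%. Among all genes it ranked at 96 and 129. Its fragment number per mapped fragment was 1.37-fold higher in the 28-pair embryo (exact 95% counting interval 1.31 to 1.44).

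The next 3 genes by mean level lay in the same stretch of LGb. A gene of 537 bases at 2151687 to 2153991 had 99.4 FPKM in the 28-pair embryo and 79.3 at 38. One at 1751610 to 1758382 had 65.3 and 46.0 FPKM. One at 2174915 to 2203709, with a longer transcript of 3165 bases, had 59.6 and 38.7 FPKM. All these were lower at 38, with fragment intervals apart from 1: the 28 over 38 ratios were 1.25 (1.10 to 1.41), 1.42 (1.27 to 1.59) and 1.54 (1.44 to 1.64). The median 38 over 28 FPKM ratio of genes with 1 FPKM or more in both libraries was 0.86. The 38 over 28 interval of the gene at 2151687 to 2153991, 0.71 to 0.91, held that value. Those of the others, 0.63 to 0.79 and 0.61 to 0.69, lay below it.

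The remaining members of the 8 most abundant were mixed in direction. A short transcript of 372 bases at 1872624 to 1873347 was at 42.5 and 33.6 FPKM. It rested on 155 and 115 fragments, and its interval held 1. The gene at 1841420 to 1859967 had 47.0 and 24.6 FPKM, with a 28 over 38 fragment ratio of 1.90 (1.78 to 2.03). The gene at 1812573 to 1819539 went the other way, with 23.6 FPKM in the 28-pair embryo and 30.1 at 38, with a 38 over 28 fragment ratio of 1.27 (1.07 to 1.5). The last, at 1343011 to 1368336, had 30.2 and 21.8 FPKM. The 5 most abundant genes by mean level together made up 69.4% and 70.6% of the summed FPKM of LGb, and 4 of the top 5 and 7 of the top 8 at one stage were also in the top at the other. Across the 44 expressed genes, which come from the same libraries and are not independent, Spearman's rho between the stages was 0.91, against 0.90 over all 10783 expressed genes.

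LGb genes were mostly lower in the embryo with 38 somite pairs. Of all 62 genes, 39 had a lower FPKM at 38, 10 had a higher one and 13 were listed at 0 in both. Of the 44 expressed genes, 37 were lower at 38 (84.1%), while the share was 62.4% over all 10783 expressed genes and 59.0% to 64.5% on single large chromosomes. The median log2 difference, 38 minus 28 somite pairs on the log2(FPKM + 1) scale, was -0.46 on LGb, with quartiles at -0.84 and -0.24. Medians ran from -0.21 on chromosome 2 to -0.10 on chromosome 5, and the median of all expressed genes was -0.18. Values in this paragraph are FPKM as deposited.

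A general shift between the libraries is part of these counts. Set against the median of all expressed genes, 33 of the 44 LGb genes lay below it and 11 above. Of the 44 genes, 17 lay in the lowest quartile of all differences and 5 in the highest. With values at 38 multiplied by 1.16, which put the median difference of all expressed genes at 0.0062, 34 of the 44 LGb genes were lower at 38 (77.3%), against 47.9% on chromosomes 1 to 6. Among the other small linkage groups 64 of 89 genes were lower at 38 as deposited (71.9%), against 62.4% of all expressed genes. A raised share of genes lower at 38 was thus also seen away from LGb. This share was 77.8% on LGc, 68.4% on LGf and 66.7% on LGa, while LGd, LGg and LGh held only 2 expressed genes each. The median log2 difference of the 89 genes was -0.37. It was -0.53 over the 38 genes of LGf, further from 0 than on LGb, -0.35 over the 36 genes of LGc and -0.38 over the 9 genes of LGa.

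Because the filter admits genes through the library in which they are high, the counts were also taken over genes with signal in both. Also 44 LGb genes were listed above 0 in both libraries, 42 of them among the expressed genes, and 35 of these 44 were lower at 38 (79.5%), against 62.2% of 5961 such genes on chromosomes 1 to 6. Where both libraries held 100 fragments or more, 17 of 19 LGb genes were lower at 38, against 70.3% of 4806 such genes in all. Their median log2 difference was -0.45, against -0.21 over all such genes, and 15 of the 19 lay below that overall median.

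**Figure D3:**
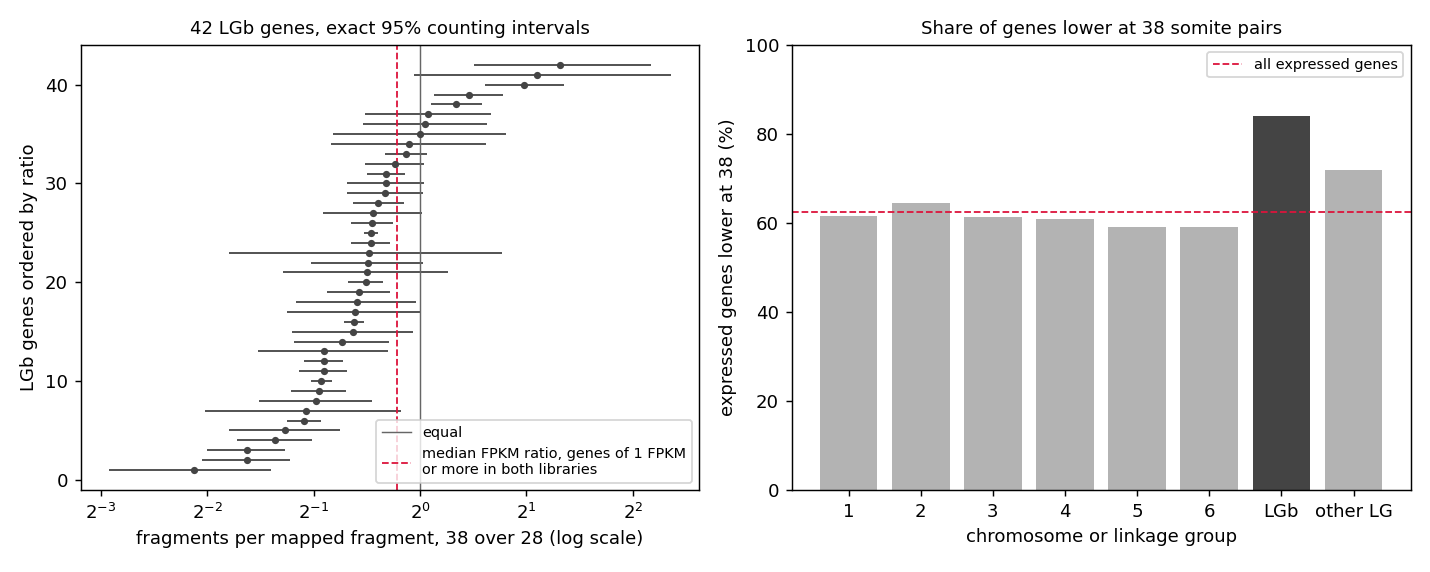
Left, fragments per mapped fragment at 38 over 28 somite pairs (log scale) for the 42 expressed LGb genes with fragments in both libraries, with exact 95% counting intervals; the interval lies below 1 for 24 and above 1 for 4. Right, the percentage of expressed genes lower at 38 on each large chromosome, on LGb and on the other linkage groups, with 84.1% on LGb and 62.4% over all genes.

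Because each gene's fragment number is its FPKM rescaled by effective length, it cannot serve as a separate check on direction. The sums below weigh genes by their fragments. LGb as a whole had a ratio of fragments per mapped fragment, 38 over 28 somite pairs, of 0.66 (0.65 to 0.68), against 0.81 on chromosome 2 to 0.87 on chromosome 5. Per fragment in listed transcripts the ratio was 0.80 (0.78 to 0.81) on LGb and 0.97 to 1.05 on the large chromosomes. Without the most abundant gene the LGb ratio per mapped fragment was 0.64 (0.63 to 0.66), and without the 5 most abundant it was 0.63 (0.61 to 0.65). These intervals cover counting error only, not the difference between any pair of embryos.

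Gene by gene, the counting interval of the ratio lay wholly below 1 for 24 of 42 expressed LGb genes with fragments in both libraries and wholly above 1 for 4. Over all 8872 such genes the shares were 41.1% and 17.6%. Measured against 0.86, the median FPKM ratio over genes with 1 FPKM or more in both libraries, the interval lay below for 19 LGb genes and above for 5, where the shares over all genes were 27.9% and 28.9%. The other 18 LGb genes could not be placed on either side at this depth.

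No LGb gene met the strict rule for a single gene. That rule asked for an FPKM of 1 or more in a library, a 2-fold difference and deposited intervals that did not overlap. It was met by 0 of the 44 expressed LGb genes and by 3.49% of all expressed genes, made up of 1.94% higher at 28 and 1.55% higher at 38. The deposited intervals reach 2 square roots of FPKM to each side at any depth, so at low FPKM a 2-fold difference does not separate them. The count of 0 on LGb therefore does not show a lack of differences. By the fold alone, 6 LGb genes were higher at 28 and 1 at 38, against 9.20% and 8.58% of all expressed genes. Of these 6, 2 were listed at 0 at 38 and passed the filter only through the 28-pair library. With a 2-fold difference in fragments and a counting interval apart from 1 instead, 7 of 42 LGb genes were higher in the 28-pair embryo (16.7%) and 1 was higher at 38 (2.38%). Over all 8872 genes the shares were 9.08% and 6.08%. Of the 7, the gene at 2418671 to 2462979 was under 1 FPKM at 38 and passed the filter only through the 28-pair library.

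The lead among genes lower at 38 with 1 FPKM or more in both libraries was ENSACAG00000016062 (2156453 to 2163663, transcript of 1803 bases). It had 9.10 FPKM in the 28-pair embryo (219 fragments) and 2.92 at 38 (66 fragments), with a 28 over 38 fragment ratio of 3.09 (2.34 to 4.13). ENSACAG00000015223 (1739589 to 1747410) followed with 23.6 and 9.22 FPKM, with a 28 over 38 fragment ratio of 2.57 (2.02 to 3.30). It lies near the abundant gene at 1751610 to 1758382, which differed only 1.42-fold.

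Further genes of the same kind lay at 3 other places. The gene at 1313480 to 1328807 had 5.41 and 1.73 FPKM, with a 28 over 38 fragment ratio of 3.09 (2.41 to 4.0). The gene at 2058139 to 2069277 had 11.9 and 4.93 FPKM, with a 28 over 38 fragment ratio of 2.40 (1.69 to 3.47). A transcript of 270 bases at 1869884 to 1870853 had 16.3 and 7.66 FPKM, but only 36 and 16 fragments, so its 2.10-fold difference had an interval of 1.13 to 4.04. With at least 100 fragments in a library required, its place in the order was taken by the gene at 1459361 to 1575711. That gene, with a transcript of 7524 bases, had 9.03 and 4.17 FPKM from 1086 and 475 fragments, with a 28 over 38 fragment ratio of 2.13 (1.91 to 2.38). Among expressed genes with fragments in both libraries, the largest fold by fragments was at 2418671 to 2462979, a gene of low level with 1.36 and 0.31 FPKM, with a 28 over 38 fragment ratio of 4.36 (2.64 to 7.58). It lies outside the rule for named genes, since it was under 1 FPKM at 38, and was picked after its values were seen.

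Few LGb genes were higher in the 38-pair embryo. ENSACAG00000016697 (2751633 to 2758360) had 2.88 FPKM at 28 and 7.06 at 38, from 19 and 44 fragments, with a 38 over 28 fragment ratio of 2.49 (1.42 to 4.51). ENSACAG00000014093 (4014 to 14453), the first gene of the linkage group, had 7.95 and 15.6 FPKM from 95 and 174 fragments, with a 38 over 28 fragment ratio of 1.97 (1.52 to 2.55). These lie near opposite ends of LGb. The gene at 1782913 to 1795965 had 7.44 and 10.1 FPKM, with a 38 over 28 fragment ratio of 1.37 (1.10 to 1.72), and the nearby gene at 1812573 to 1819539 was the abundant gene described above. The last of the 5 in the order, at 1270684 to 1298519, had 1.72 and 1.80 FPKM, and its interval held 1.

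**Figure D4:**
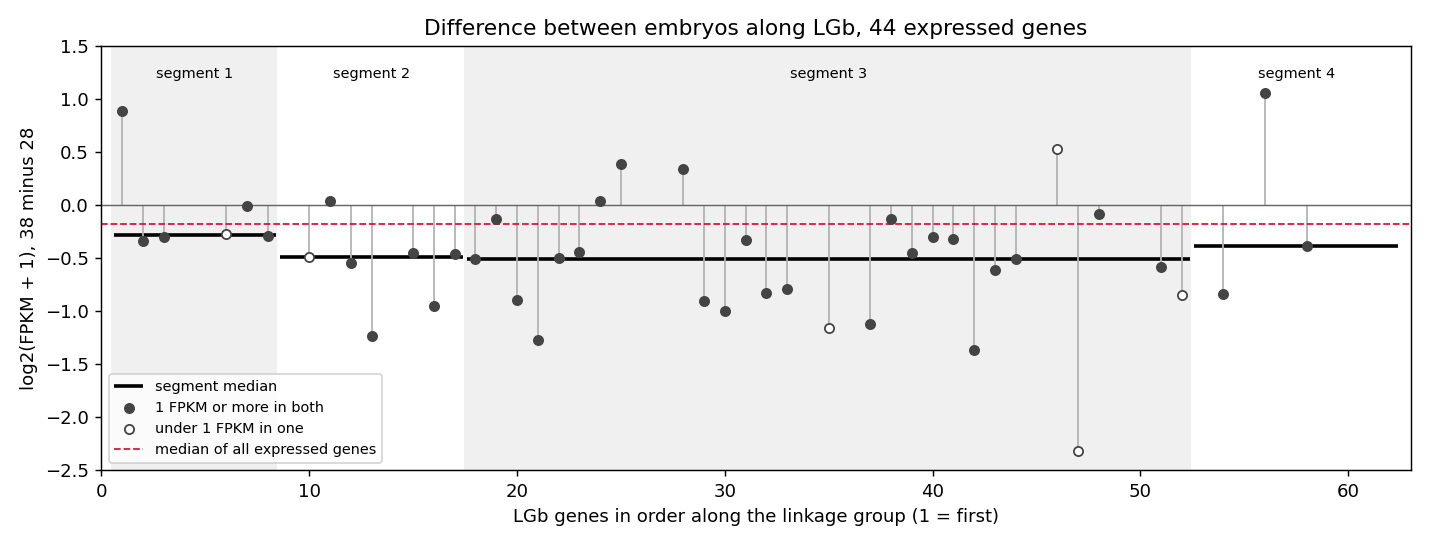
Difference in log2(FPKM + 1), 38 minus 28 somite pairs, of the 44 expressed LGb genes in order along the linkage group, with open circles for genes under 1 FPKM in a library. Black bars mark the medians of 4 segments of equal length, from -0.28 in the first, with 6 genes, to -0.51 in the third, with 28. The dashed line is the median of all expressed genes at -0.18, and the sign of the first and the last segment relative to it changed with the filter or scale.

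Under each of the 9 alternatives tried, the second and the third of 4 segments of equal length had medians below that of all genes. The first and the last did so only under some of them. With 4 bins of 11 expressed genes each instead, the medians relative to all genes were -0.13, -0.28, -0.61 and -0.41. With 3 bins of equal span they were -0.11, -0.32 and -0.37, the last over 10 genes. The contrast of the middle with the far end thus depended on the choice of segments. The first segment (4014 to 819970) held 8 genes, 6 of them expressed, at a low level, with a median of 1.85 FPKM in the 28-pair embryo and 1.44 at 38. Its median log2 difference was -0.28, with 5 of 6 genes lower at 38. Its summed fragments had a 38 over 28 ratio of 0.97 (0.86 to 1.09), an interval that held 1 and lay above the 0.84 of chromosomes 1 to 6. Relative to all genes its median was -0.10. It was 0.016 with a pseudocount of 5 FPKM, 0.49 with 5 FPKM or more and 0.040 with the transcript length trend removed. The first gene of LGb was higher in the 38-pair embryo. It gave 95 of the segment's 621 fragments at 28 and 174 of 559 at 38. The gene at 485310 to 522409 was lower at 38 but passed the filter only through the 28-pair library.

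The second segment (819970 to 1635926) held 9 genes, 7 expressed, with medians of 9.03 and 4.17 FPKM. Its median log2 difference was -0.49, 6 of 7 genes were lower at 38, and the fragment ratio was 0.55 (0.51 to 0.59). The gene at 1459361 to 1575711 gave 1086 of its 2223 fragments at 28 and 475 of 1139 at 38, so 1 gene weighs heavily in that ratio. The third (1635926 to 2451883) held 35 genes, of which 28 were expressed, and all of the 7 most abundant genes. Its medians were 9.32 and 7.06 FPKM, its median log2 difference was -0.51, and 24 of 28 genes were lower at 38. Its fragment ratio was 0.66 (0.65 to 0.68). In the second segment, the gene at 984372 to 1162071 was lower at 38 but passed the filter only through the 28-pair library. So did the genes at 2025809 to 2030961, 2290688 to 2295074 and 2418671 to 2462979 in the third. The gene at 2279130 to 2287881 in the third, higher at 38, passed only through the 38-pair library.

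The last segment (2451883 to 3267839) held 10 genes, of which only 3 were expressed, with a median log2 difference of -0.38 and 2 of 3 lower at 38. Relative to all genes that median was -0.21, but it was 0.25 over genes above 0 in both libraries and 0.059 with the length trend removed. The segment counts lower at 38 stand beside a share of 62.4% over all expressed genes. Set against the overall median, 4 of 6, 6 of 7, 21 of 28 and 2 of 3 expressed genes lay below it, in segment order. The longest run of neighbouring expressed genes that were all lower at 38 counted 14 genes, from 1841420 to 2263030, with log2 differences from -1.36 to -0.14. That run holds the gene at 2025809 to 2030961, which was listed at 0 at 38 and passed the filter only through the 28-pair library. The next run counted 11 genes, from 1306511 to 1768361. These runs were found after the values were seen and were not tested.

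Lower values at 38 were found among LGb genes of each level and length class. Of expressed LGb genes under 5 FPKM in both libraries, 12 of 14 were lower at 38 (85.7%), against 49.7% of such genes on chromosomes 1 to 6. Of these 12, 5 were under 1 FPKM at 38 and so passed the filter only through the 28-pair library. With 1 FPKM or more in both libraries, 7 of 8 were lower (87.5%), against 54.8%. From 5 to under 20 FPKM, 16 of 20 were lower (80.0%), against 63.6%. At 20 FPKM or more, 9 of 10 were lower (90.0%), against 70.2%. Set against the median of all expressed genes, 4 of the 8, 15 of the 20 and 9 of the 10 lay below it. The shares on chromosomes 1 to 6 were 38.9%, 50.6% and 54.8%. Relative to that median, the LGb medians were -0.034, -0.33 and -0.30, so the lowest class lay near the general shift. By transcript length, 13 of 17 LGb genes under 1000 bases were lower at 38 (76.5%, against 53.6% on chromosomes 1 to 6), 10 of 12 from 1000 to under 2000 bases (83.3%, against 58.0%), and 14 of 15 of 2000 bases or more (93.3%, against 74.6%). Each length class held LGb genes that passed the filter only through 1 library. Over LGb genes with 1 FPKM or more in both libraries, the counts lower at 38 were 12 of 16, 8 of 9 and 12 of 13, in the same order of length. The shares of such genes on chromosomes 1 to 6 were 55.4%, 61.6% and 76.6%. GC content was not tested.

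Genes with signal at one stage only were few. At 0 in the 38-pair embryo only were 4 genes (the share over all listed genes was 4.34%). They were the genes at 2290688 to 2295074 with 3.98 FPKM and 32 fragments at 28, at 2025809 to 2030961 with 1.24 FPKM and 17 fragments, at 1799187 to 1799969 with 0.95 FPKM and 13 fragments, and at 2266525 to 2275583 with 0.43 FPKM and 10 fragments. At 0 at 28 only was 1 gene (5.02% of all genes), at 467364 to 468467, with 0.81 FPKM and 10 fragments at 38. Since a listed 0 can hide a few fragments, only the gene with 32 fragments stood well clear of that limit.

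Genes listed at 0 in both libraries included all of those at the far end. The last 4 genes of LGb, at 3157193 to 3157311, 3233213 to 3234757, 3245525 to 3245644 and 3261791 to 3267839, had no listed signal, and the last expressed gene ended at 2919862. Transcripts of the 13 genes at 0 in both libraries had a median of 645 bases, against 1409 bases for expressed genes, and ranged from 96 to 2349. They included a gene that spans 178 kb (289226 to 467363). The other genes spanning 100 kb or more had listed signal at a low to middle level. Values were 1.61 and 0.86 FPKM at 984372 to 1162071. At 2556321 to 2665942 they were 0.26 and 0.41 FPKM from 10 and 15 fragments, under 1 FPKM in both libraries. The remaining one was the gene at 1459361 to 1575711 described above.

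Of the 62 genes, 5 had more than 1 annotated transcript, and 4 of these had signal. At 1313480 to 1328807, among the genes furthest below at 38, the leading transcript changed between models of 3414 and 3408 bases. The longer made up 96.8% of the gene's FPKM in the 28-pair embryo and 43.1% at 38. The lengths differ by a few bases, and the gene had only 82 fragments at 38, so this split is uncertain. In the other 3 genes the same transcript led at both stages. The leading transcript made up 84.6% and 79.6% at 1595171 to 1602861, 92.8% and 98.0% at 1782913 to 1795965, and 96.9% and 96.1% at 1885234 to 1900871.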

How the data were processed

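Whole-embryo RNA-seq libraries of 1 embryo per stage were used. Alignment of untrimmed reads to AnoCar2.0 used TopHat, per the series description, and the submitters' processing notes also list Cufflinks. No version is stated for either. The authors deposited FPKM per gene and per transcript, with bounds. Per the file headers, transcripts also have a locus fraction and a coverage signal, both not used here. The bounds lay 2 square roots of FPKM to each side, floored at 0, for 62 of 62 LGb genes at 28 somite pairs and 61 at 38, so they hold no information on depth.

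Fragment numbers are FPKM times effective length divided by the step of 1 fragment. Low values (under 100 fragments) of loci with 1 transcript were whole within 0.02 fragments for 93.1% and 92.6%. Mapped totals assume that FPKM was scaled to all mapped fragments. Ratios have exact 95% Clopper-Pearson intervals, for counting error only. Differences are log2(FPKM + 1), which understates low genes. Positions are 1-based.

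Named genes were the 8 with the highest mean FPKM, and the 5 largest differences each way among genes of 1 FPKM or more in both libraries, and again among those with 100 fragments in a library. The members and groups were chosen with earlier results of these data known. Alternatives covered pseudocount, filter, scaling, length, segments and call rule. Fragment recovery, the counting intervals and the call rule were tested on simulated data for genes with 1 transcript. That simulation held counting noise only. It did not cover level ratios, segments or differences between embryos of the same stage. Software was matplotlib 3.10.9, numpy 2.4.6, scipy 1.17.1 and pandas 2.3.3, run in Python 3.11.15.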

Additional observations from a re-analysis of the deposited data

How the results depend on the processing

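No paired analysis was possible because there was 1 embryo and 1 library for each stage. Of 92 alternative values, 70 stayed within 1.5 times the reported count or share, or within the binomial interval of the reported median or ratio. The cause of the shifts outside these limits was not tested. The interval of a median or level ratio was taken over genes, which are not replicates, so it is a loose limit. In the 38-pair embryo, the LGb level was 0.58 relative to chromosomes 1 to 6. Its 0.92 relative to the other linkage groups still counted within the limit. Some of the 70 could not have moved. The 4-fold rule and the leaving out of genes at 0 could only lower call counts that were already 0. For the first, the second and the last segment, the interval spans all of their 6, 7 and 3 expressed genes, so it is wide. The relative median log2 difference of LGb stayed negative under all 12 alternatives tried, from -0.31 to -0.19. The scalings among these could hardly change it, because the overall median was taken from the same scaled values. Several alternatives were chosen after seeing the data: the scalings of the LGb median and of the count of lower genes, and the fragment rule. So were the counts of lower genes with 1 FPKM or more in both libraries. The fragment ratios without abundant genes and per fragment in listed transcripts were also chosen then.

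Relative to all genes, the median of the first segment was -0.21, -0.17 and 0.016 with pseudocounts of 0.1, 0.5 and 5 FPKM, 0.49 at 5 FPKM or more and 0.040 with the length trend removed. That of the last was 0.25 with FPKM above 0 in both and 0.059 with the length trend removed. These segments rest on 6 and 3 genes. The LGb level relative to chromosomes 1 to 6 was 1.99 at 28 somite pairs and 1.04 at 38 with no filter, and 0.58 at 28 with 5 FPKM or more. Relative to the other linkage groups it was 1.22 at 28. Genes higher at 38 and at 28 were 1 and 6 by the fold of 2 without intervals, and 1 and 7 by the fragment rule. Genes under 5 FPKM and lower at 38 were 12, and 7 with 1 FPKM or more in both libraries. At 5 FPKM or more, 21 LGb genes were detected at 38. The LGb share of summed FPKM on placed chromosomes, 0.51% and 0.40%, was 0.19% and 0.15% without the 5 most abundant genes of each chromosome. The fragment ratio of 0.66 was 0.64 without the most abundant gene, 0.63 without 5, and 0.80 per listed fragment. Depth limits genes under 10 fragments, which were nearly always listed at 0.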
